A study of Homo sapiens with 9 samples.

Results

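The RAB genes encode the Rab GTPases, the largest branch of the Ras superfamily of small GTPases. Every row of the deposited count table whose symbol was RAB, then a number, then at most 1 letter and 1 further digit was taken as a member, which gave 63 of 28216 genes. All 63 were found in GENCODE 44 on GRCh38. A Rab protein carries a lipid tail, added by a prenylation enzyme, that lets it sit on a membrane. An exchange factor loads it with GTP, and in that state it recruits effectors such as tethers and motor adaptors that bring a vesicle to the right compartment. Each compartment of the cell carries its own Rabs, so that early endosomes, recycling endosomes, the Golgi and secretory granules can be told apart by them, and in prostate epithelium Rabs serve both secretion and the return of receptors and glucose transporters to the surface.

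RNA was sequenced from 3 groups of 3 libraries, all of established prostate cancer lines with the genotype given as WT. PC3 cells, an androgen-independent line from a bone metastasis, were untreated and grew in F12K medium with full serum. LNCaP cells (clone FCG), an androgen-responsive line from a lymph node metastasis, were kept in charcoal-stripped serum without phenol red and then for 48 h with 10 nM DHT (dihydrotestosterone) in the LNCaP + DHT group. The androgen is DHT per the labels, whereas the study's text names the synthetic androgen R1881, so which compound the LNCaP + DHT cells received is not settled here. The LNCaP + vehicle group received 0.01% ethanol for the same 48 h in the same stripped serum. Line, medium and serum therefore changed together between PC3 and LNCaP cells and cannot be told apart, and each line stands for a single tumour. The labels give numbered replicates and do not say whether these were separate cultures, so p-values measure the spread between these libraries, which may be technical.

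Each library had between 17397706 and 25640325 counts on genes. Levels are given as CPM, counts brought to a common library size with TMM factors over all 9 libraries. A count of 0 allows up to 0.118 to 0.160 CPM (3 counts), and such limits and intervals cover counting error only. The markers fitted the labels. KLK3, which encodes prostate-specific antigen, reached 86989 to 88995 counts in the LNCaP + DHT group but 2 to 20 in the PC3 group. All 8 LNCaP markers together reached 0.467% to 0.529% of their LNCaP + DHT level in PC3 libraries, and all 8 PC3 markers reached 0.339% to 0.995% of their PC3 level in LNCaP libraries, with the 0.995% in LNCaP + DHT replicate 1. Of 6 genes marking blood, endothelial and stromal cells, CD3E was at 0 in every library, whereas COL1A1 averaged 13.4 to 38.5 CPM and ACTA2 24.0 CPM in LNCaP + DHT cells. The 6 genes summed to 41.4 to 52.8 CPM in PC3, 35.2 to 41.0 in LNCaP + DHT and 23.3 or more, but below all others, in LNCaP + vehicle libraries, and their part in the results was not tested.

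The sequences just upstream of 5 members are given because the results below turn on these genes. RAB3B and RAB4A rose with DHT, RAB5C and RAB25 were at or close to 0 in PC3 cells, and RAB34 was close to 0 in LNCaP cells. Each RefSeq window (GRCh38.p14) runs from 250 bases before to 50 bases after the annotated start and is printed 5′ to 3′ on the strand of the gene, with every CpG in capitals. RAB3B lies on the minus strand at chr1:51990651-51990950, RAB4A on the plus strand at chr1:229270861-229271160, RAB5C on the minus strand at chr17:42154940-42155239, RAB25 on the plus strand at chr1:156060910-156061209 and RAB34, in the nearest of its 3 windows, on the minus strand at chr17:28718219-28718518.
RAB3B: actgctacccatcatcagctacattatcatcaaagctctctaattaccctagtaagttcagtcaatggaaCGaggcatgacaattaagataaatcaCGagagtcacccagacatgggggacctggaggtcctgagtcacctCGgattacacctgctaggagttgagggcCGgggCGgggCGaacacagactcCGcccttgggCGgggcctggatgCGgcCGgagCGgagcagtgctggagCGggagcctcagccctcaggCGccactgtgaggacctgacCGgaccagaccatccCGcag
RAB4A: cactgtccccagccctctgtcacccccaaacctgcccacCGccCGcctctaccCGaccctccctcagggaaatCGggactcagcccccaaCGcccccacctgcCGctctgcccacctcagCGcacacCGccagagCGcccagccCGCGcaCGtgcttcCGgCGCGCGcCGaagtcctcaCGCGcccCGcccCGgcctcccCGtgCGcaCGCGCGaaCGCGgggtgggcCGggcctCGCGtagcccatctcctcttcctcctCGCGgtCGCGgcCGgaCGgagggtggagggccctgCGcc
RAB5C: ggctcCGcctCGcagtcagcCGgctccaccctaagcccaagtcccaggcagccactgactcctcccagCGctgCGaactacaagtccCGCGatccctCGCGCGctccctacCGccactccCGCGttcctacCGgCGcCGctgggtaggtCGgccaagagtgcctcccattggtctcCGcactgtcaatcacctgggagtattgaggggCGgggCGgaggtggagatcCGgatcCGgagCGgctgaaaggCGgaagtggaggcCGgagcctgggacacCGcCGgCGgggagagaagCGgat
RAB25: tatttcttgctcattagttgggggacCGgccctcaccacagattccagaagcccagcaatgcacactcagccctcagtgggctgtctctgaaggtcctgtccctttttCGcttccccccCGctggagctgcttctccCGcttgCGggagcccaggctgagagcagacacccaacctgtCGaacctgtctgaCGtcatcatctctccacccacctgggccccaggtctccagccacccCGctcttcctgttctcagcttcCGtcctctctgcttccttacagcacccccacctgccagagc
RAB34: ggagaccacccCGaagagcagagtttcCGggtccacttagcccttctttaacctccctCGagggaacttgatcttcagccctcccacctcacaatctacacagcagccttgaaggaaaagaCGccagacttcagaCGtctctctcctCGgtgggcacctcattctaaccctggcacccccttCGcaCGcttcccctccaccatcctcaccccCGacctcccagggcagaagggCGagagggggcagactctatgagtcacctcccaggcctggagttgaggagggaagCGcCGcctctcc
The windows held 15 CpG in RAB3B, 38 in RAB4A, 29 in RAB5C, 9 in RAB25 and 12 in RAB34, against a median of 14 over all windows. As many CpG as in RAB4A were found in 9.91% of windows, and as many as in RAB5C in 24.2%.

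Members were tested with edgeR's quasi-likelihood test across all genes that passed 3 CPM in at least 3 of the 6 libraries compared. A gene is called where the adjusted p was under 0.05 and the change at least 2-fold. Between the lines, RAB5C, RAB6C, RAB6D, RAB19, RAB25 and RAB34 passed the filter only through the group where they were high. RAB6D did so with DHT as well. These calls therefore add nothing to the levels themselves. Of 63 members, 51 were tested in at least 1 comparison, 48 in all, and 12 in none because they were too low. Against LNCaP + DHT cells, PC3 cells had 4 of 51 tested members called higher and 20 lower, where 24.0% of all 12541 genes tested were called higher and 22.1% lower. The median log2 fold change of the members was -0.56, beside 0.036 over all genes. By the adjusted p alone, 12 members were higher and 32 lower, beside 42.9% and 41.1% of all genes. The 4 called higher were RAB34, RAB27B, RAB23 and RAB32.

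Against LNCaP + vehicle cells, PC3 cells had 5 of 49 tested members called higher and 12 lower, beside 22.2% and 21.0% of all genes. The median of the members was -0.29 and that of all genes 0.026. By the adjusted p alone, 15 members were higher and 26 lower, beside 42.6% and 40.8%. All 12 called lower here were also called lower against LNCaP + DHT cells, and RAB34, RAB27B and RAB32 were called higher in both. The 3 comparisons share libraries and are not independent of each other. Between the LNCaP groups, 3 of 50 tested members were called higher with DHT (RAB3B, RAB6D, RAB4A) and 1 lower (RAB19), beside 6.54% and 7.49% of all genes. Of these, RAB6D entered the test only through its level in the LNCaP + DHT libraries. By the adjusted p alone, 30 members were higher and 10 lower with DHT, beside 37.1% and 37.8% of all genes, and the median of the members was 0.28 where that of all genes was -0.0068. Most of these changes were smaller than 2-fold. In bulk RNA, fewer cells that express a gene and less RNA per cell cannot be told apart. As a share of all counts, the 63 members together made up 0.347% to 0.355% in PC3 libraries, 0.395% to 0.403% in LNCaP + vehicle libraries and 0.479% to 0.486% in LNCaP + DHT libraries, with no overlap between groups.

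**Figure D1:**
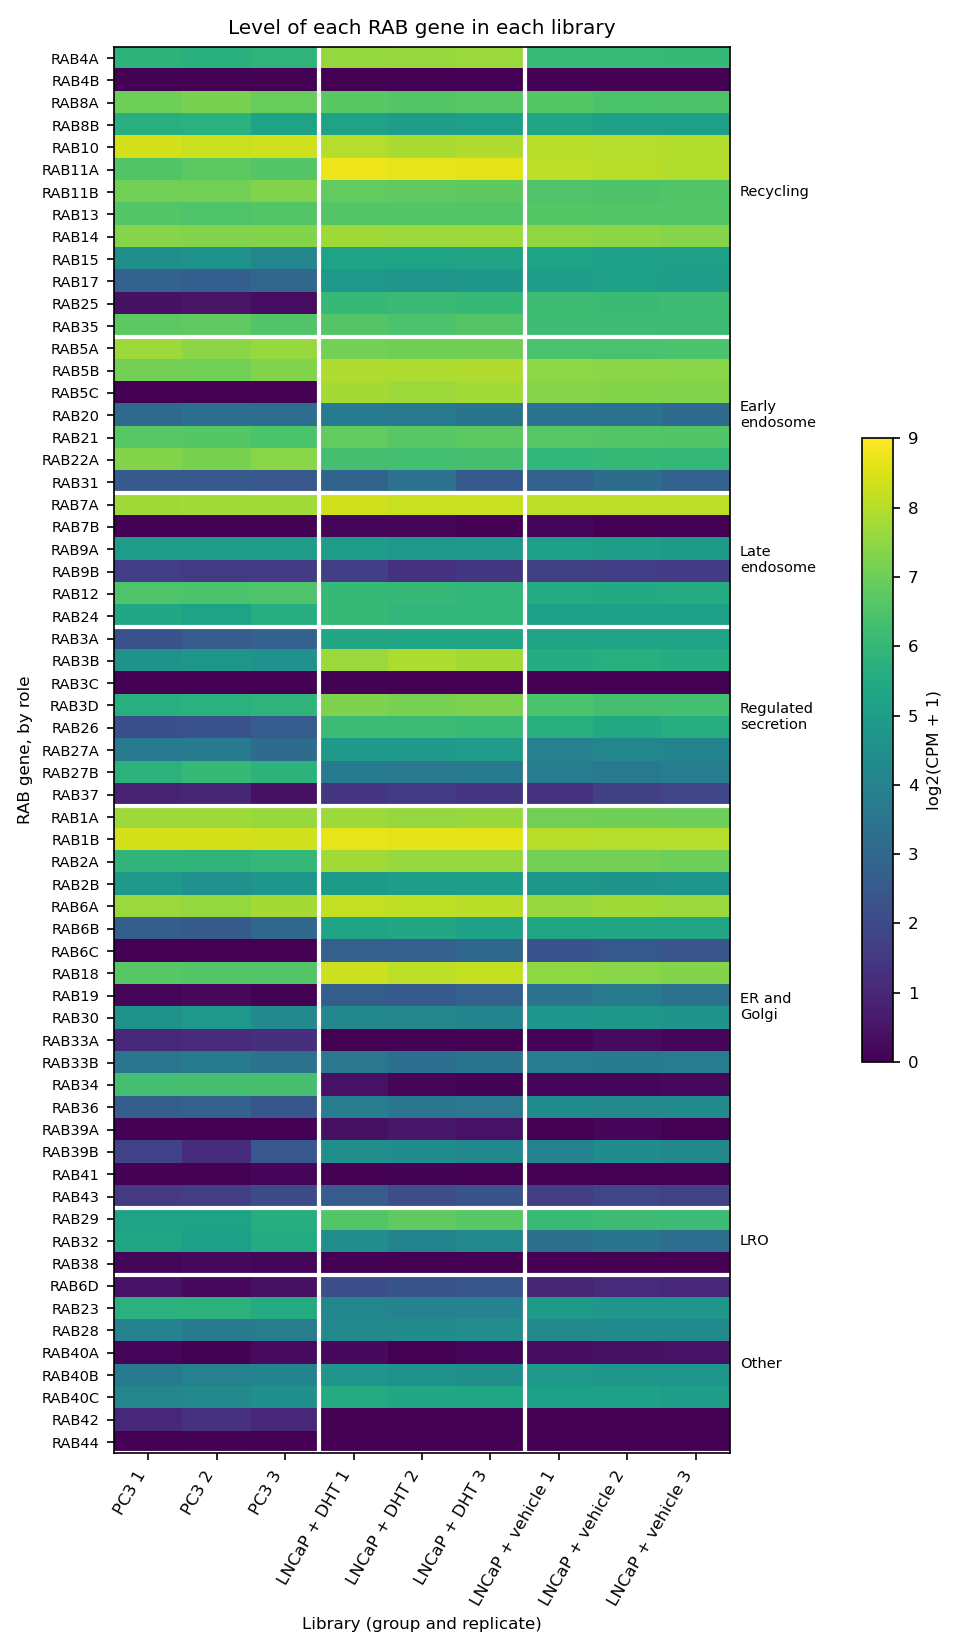
Level of each of the 63 RAB genes, as log2(CPM + 1) on a colour scale, in each of the 9 libraries (columns, by group and replicate), with genes ordered by role and roles separated by white lines. RAB5C is dark in the 3 PC3 libraries and bright in all LNCaP libraries, RAB34 is the reverse, and RAB4A and RAB3B are brightest in the LNCaP + DHT libraries.

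**Figure D2:**
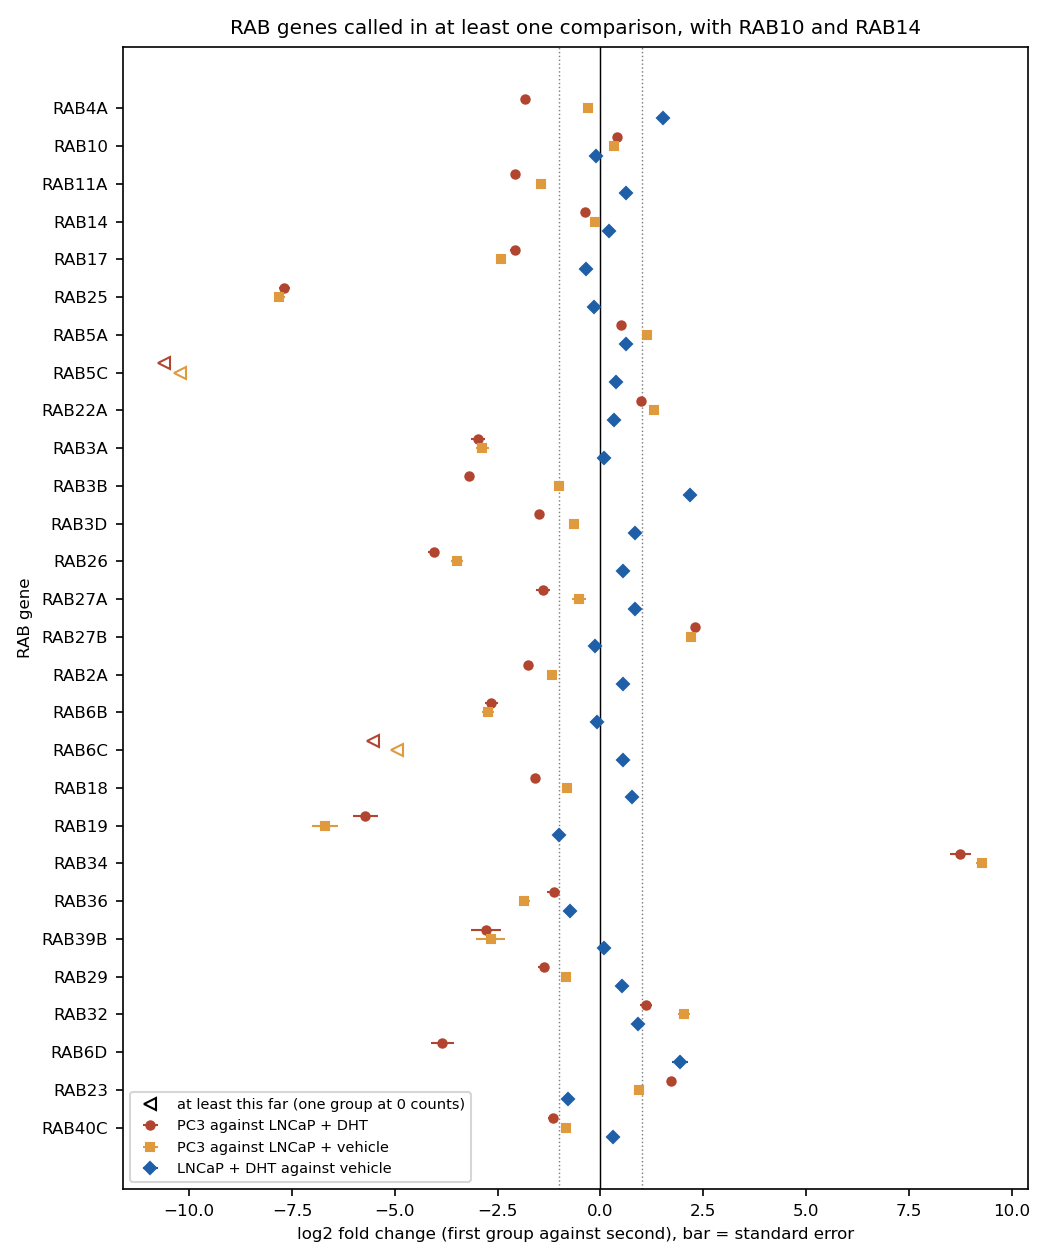
Log2 fold change of the 26 members called in at least 1 comparison, with RAB10 and RAB14, for PC3 against LNCaP + DHT (circles), PC3 against LNCaP + vehicle (squares) and LNCaP + DHT against LNCaP + vehicle (diamonds), with bars for the standard error and dotted lines at a 2-fold change. Open triangles mark RAB5C and RAB6C, which had 0 counts in PC3 cells, at the smallest change the counts allow, and most circles and squares lie left of 0.

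Levels per kb of exon, with all annotated exons of a gene merged, allow genes to be compared roughly. The merged length need not be that of the transcripts the cells use. On this scale RAB1B was the highest member in every group. It read 172 ± 4.66 CPM per kb (SD, n = 3) in PC3 cells, 205 ± 2.90 in LNCaP + DHT cells and 132 ± 2.63 in LNCaP + vehicle cells. RAB1B and RAB1A direct traffic from the endoplasmic reticulum to the Golgi. RAB10 followed in PC3 cells with 89.0 ± 4.17 CPM per kb, and RAB11B and RAB1A, which came next with 61.3 ± 4.96 and 61.3 ± 1.69, did not differ beyond their spread. In LNCaP + DHT cells RAB5C came next with 76.9 ± 3.58 and then RAB11A with 71.9 ± 3.57, again within reach of each other's spread. In LNCaP + vehicle cells RAB10 (69.7 ± 1.74) stood above RAB5C (58.3 ± 1.21) and RAB11A (46.1 ± 1.87).

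Among the 13 Rabs of recycling and endosome-to-surface traffic, 12 were tested, and of these 4 were called lower and 0 higher when PC3 was set against LNCaP + DHT (RAB25, RAB17, RAB11A and RAB4A), beside 22.1% and 24.0% of all genes. RAB4A (chr1:229271062-229305894), the Rab of fast recycling from early endosomes, read 55.5, 51.9 and 56.8 CPM in PC3 libraries, 189, 193 and 197 CPM in LNCaP + DHT libraries and 66.9, 67.6 and 63.7 CPM in LNCaP + vehicle libraries. The DHT libraries stood far above both other groups, which were close together without overlapping. With DHT the log2 fold change of RAB4A was 1.52 (standard error 0.044, adjusted p = 6.36e-12), and PC3 cells differed from LNCaP + vehicle cells by -0.29 only (adjusted p = 0.00319). Its paralog RAB4B was at 0 in all 9 libraries, and 36.8% of its exons overlap those of the readthrough genes MIA-RAB4B and RAB4B-EGLN2 on the same strand. No count fell on the other strand of RAB4B either, so whether it was expressed cannot be told from these counts.

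RAB11A (chr15:65726054-65891989), the Rab of slow recycling through the perinuclear recycling endosome, read 94.2, 104 and 95.1 CPM in PC3 libraries, 431, 403 and 392 CPM in LNCaP + DHT libraries and 273, 261 and 251 CPM in LNCaP + vehicle libraries. The groups formed 3 separate levels, with PC3 cells lowest. RAB11A was called lower in PC3 cells against both LNCaP groups, and its rise with DHT of 0.61 (standard error 0.040, adjusted p = 1.49e-08) was under 2-fold. RAB11B, its close paralog, was higher in PC3 cells, with 142 ± 11.5, 110.2 ± 1.92 and 91.0 ± 2.41 CPM (SD, n = 3) in PC3, LNCaP + DHT and LNCaP + vehicle cells and log2 fold changes of 0.35 and 0.62 in PC3 cells against DHT and vehicle (adjusted p = 0.00226 and 9.80e-05). With DHT it was higher by 0.25 (adjusted p = 7.62e-05).

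RAB25 (chr1:156061160-156070504), the epithelial member of the RAB11 subfamily, read 0.319, 0.405 and 0.236 CPM in PC3 libraries, 64.2, 68.8 and 64.2 CPM in LNCaP + DHT libraries and 72.6, 69.0 and 72.8 CPM in LNCaP + vehicle libraries. The PC3 values rest on 6 to 9 counts per library. RAB25 was 208-fold lower in PC3 than in LNCaP + DHT cells (exact 95% interval of the count ratio 138 to 328) and 226-fold lower than in LNCaP + vehicle cells (interval 151 to 357). Of 25 genes within 500 kb that LNCaP cells expressed, RAB25 included, SEMA4A, which starts 86.2 kb away, was also near 0 in PC3 cells, at 2 to 9 counts per library against 62.1 ± 2.02 CPM in LNCaP + DHT cells. All others had at least 25 counts in every PC3 library. With the sum of the RAB11 subfamily set to 100%, RAB11B held 77.8% ± 2.06 of the CPM per kb in PC3 cells and RAB25 0.243% ± 0.0730, whereas RAB11A, RAB11B and RAB25 held 45.3% ± 1.16, 30.1% ± 0.408 and 24.6% ± 1.12 in LNCaP + DHT cells and 36.1% ± 1.21, 30.8% ± 0.657 and 33.1% ± 0.580 in LNCaP + vehicle cells.

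RAB10 (chr2:26034084-26137454), which carries GLUT4 vesicles to the surface in fat cells, read 338, 308 and 329 CPM in PC3 libraries, 255, 229.8 and 242 CPM in LNCaP + DHT libraries and 262, 253 and 249.6 CPM in LNCaP + vehicle libraries. PC3 libraries were above all LNCaP libraries, and the LNCaP groups overlapped. The differences were small, at 0.41 and 0.33 in PC3 cells against DHT and vehicle (adjusted p = 0.000621 and 0.00137) and -0.10 with DHT (adjusted p = 0.0295). RAB14 (chr9:121178133-121223014), which acts between early endosomes and the Golgi, read 162, 156 and 159.8 CPM in PC3 libraries, 211, 198 and 205 CPM in LNCaP + DHT libraries and 181, 172 and 165 CPM in LNCaP + vehicle libraries. In PC3 cells its difference from LNCaP + DHT cells was -0.38 (adjusted p = 0.000324), while that from LNCaP + vehicle cells, -0.14, did not pass (adjusted p = 0.0520). With DHT, RAB14 was higher by 0.22 (adjusted p = 0.000236).

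RAB17, a Rab of polarised epithelia, had 6.13 ± 0.727 CPM in PC3 cells, 25.7 ± 1.06 in LNCaP + DHT cells and 32.1 ± 0.837 in LNCaP + vehicle cells (SD, n = 3) and was called lower in PC3 cells against both (log2 fold changes of -2.08 and -2.41). RAB13, a Rab of tight junctions, lay between 90.7 and 97.5 CPM in all 9 libraries and passed the test in 0 of the 3 comparisons (adjusted p = 0.577, 0.379 and 0.372), and 23.2% of its 74-nt stretches also occur elsewhere. The rest of the recycling Rabs (RAB8A, RAB8B, RAB15, RAB35) changed by less than 2-fold in every comparison.

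**Figure D3:**
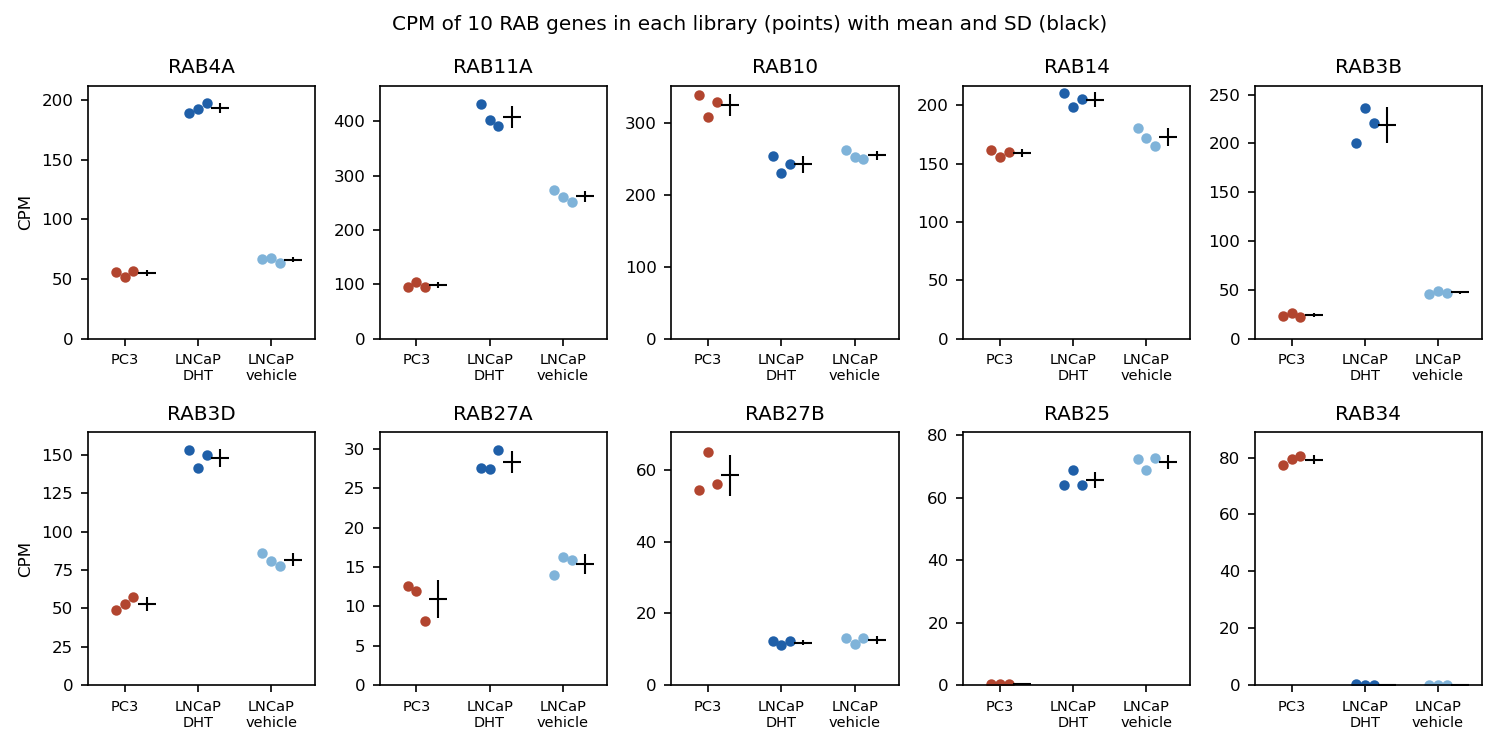
CPM of 10 RAB genes in each library (points), with the mean and SD of each group of 3 libraries in black beside the points, on axes that start at 0. RAB4A and RAB3B stand high in LNCaP + DHT libraries only, RAB11A forms 3 levels, RAB10 and RAB14 differ little, and RAB25 and RAB34 are each near 0 in one of the lines.

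All 7 Rabs of early endosomes and entry were tested. Against LNCaP + DHT cells 0 were called higher in PC3 cells and 1 lower (RAB5C), beside 24.0% and 22.1% of all genes. Against LNCaP + vehicle cells 2 were called higher (RAB5A and RAB22A) and 1 lower (RAB5C), beside 22.2% and 21.0%. RAB5C (chr17:42124978-42155044), one of the RAB5 paralogs that drive fusion of early endosomes, had 0 counts in all 3 PC3 libraries, where LNCaP + DHT libraries read 222, 202 and 212 CPM and LNCaP + vehicle libraries 164, 160.4 and 158 CPM. Against the limit of 3 counts per library, RAB5C was at least 1573-fold lower in PC3 cells than in LNCaP + DHT cells and at least 1193-fold lower than in LNCaP + vehicle cells. Of its 74-nt stretches, 21.9% also occur in transcripts of another gene. RAB5A (chr3:19947097-19985175) read 202, 172 and 195 CPM in PC3 libraries, 139, 131 and 132 CPM in LNCaP + DHT libraries and 84.0, 84.5 and 86.5 CPM in LNCaP + vehicle libraries. It was highest in PC3 cells, called against LNCaP + vehicle cells (1.14, standard error 0.075, adjusted p = 2.96e-06) and under 2-fold against LNCaP + DHT cells (0.49). RAB5B, the remaining paralog, was lower in PC3 cells, at -0.75 and -0.28 (adjusted p = 2.70e-05 and 0.00820). Per kb of exon the 3 RAB5 genes summed to 72.4 ± 5.28 CPM in PC3 cells, 149.2 ± 5.48 in LNCaP + DHT cells and 107 ± 1.63 in LNCaP + vehicle cells, and RAB5A made up 69.6% ± 1.73 of that sum in PC3 cells against 23.9% ± 0.243 and 21.1% ± 0.627.

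RAB5C was not alone at 0 in PC3 cells. Of 26 genes within 500 kb that LNCaP cells expressed, 7 next to each other (KAT2A, RAB5C, GHDC, STAT5B, STAT5A, STAT3 and CAVIN1) had at most 3 counts in every PC3 library. Together they span chr17:42113111-42423256, or 310.1 kb. STAT3 encodes a signal transducer of cytokine receptors and read 1 to 3 counts per PC3 library but 3418 to 7343 per LNCaP library, and KAT2A 0 to 1 but 1671 to 2330. ATP6V0A1, just beyond, read 0 to 4 counts per PC3 library but 1070 to 1593 per LNCaP library. On the far sides of the stretch, C17orf113 had 29 to 57 counts and NAGLU 232 to 253 counts in PC3 libraries. The number of DNA copies of this stretch was not tested.

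**Figure D4:**
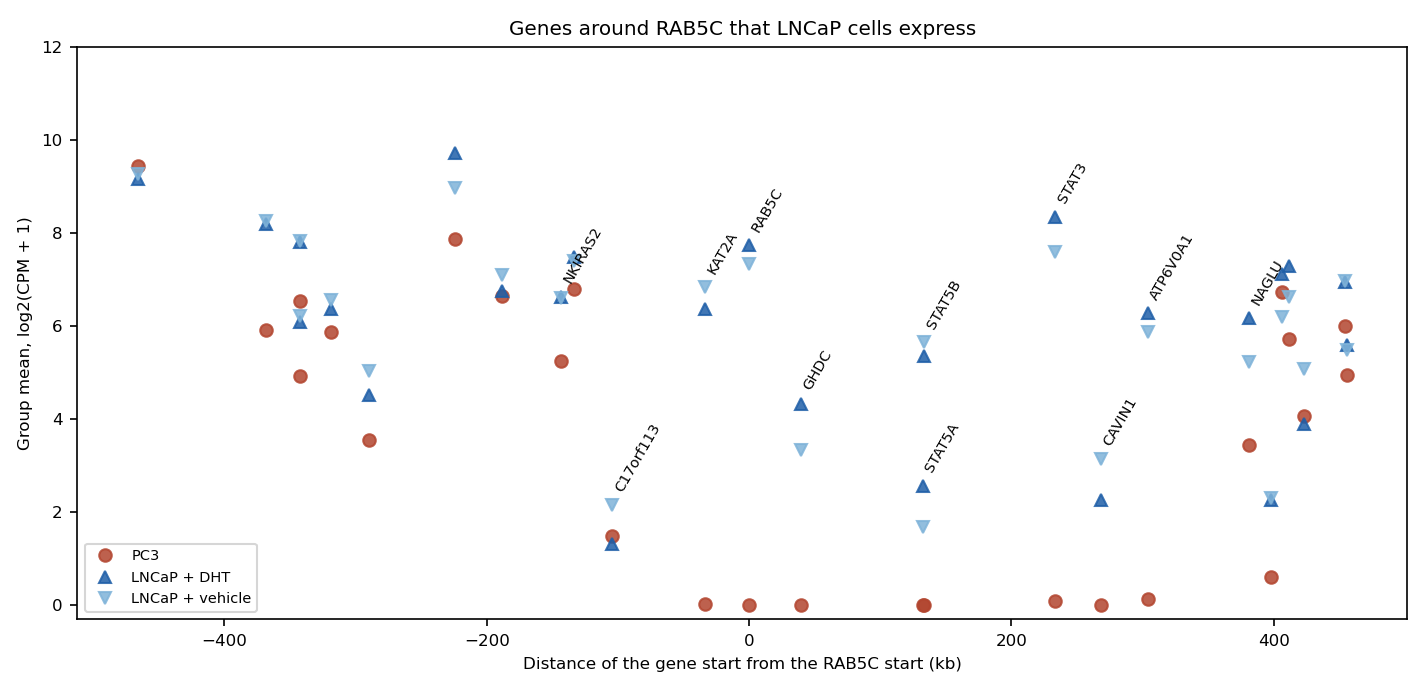
Group mean, as log2(CPM + 1), of each gene that LNCaP cells express within 500 kb of RAB5C, against the distance of its start from that of RAB5C in kb, with circles for PC3, upward triangles for LNCaP + DHT and downward triangles for LNCaP + vehicle. The PC3 circles lie at or near 0 from KAT2A to ATP6V0A1 and above 0 on both sides, whereas the LNCaP triangles stay above 0 over the whole window.

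RAB22A (chr20:58309715-58367507), which sorts cargo out of early endosomes, read 160.5, 146 and 168 CPM in PC3 libraries, 80.8, 78.1 and 80.2 CPM in LNCaP + DHT libraries and 61.0, 65.1 and 62.0 CPM in LNCaP + vehicle libraries. It was called higher in PC3 cells than in LNCaP + vehicle cells (1.31, standard error 0.073, adjusted p = 1.18e-06) and fell just short of 2-fold against LNCaP + DHT cells (0.98). Without PC3 replicate 1, 2 or 3 that value was 1.09, 1.16 or 1.04, past 2-fold. Each lay above the value from all libraries, and the filter and TMM factors were recomputed each time. With DHT, 6 of the 7 early endosome members passed the adjusted p and were higher, beside 37.1% of all genes, by at most 0.63 on the log2 scale. Of the 6 members of late endosomes, lysosomes and autophagy, 4 were tested and 0 were called in any comparison. Of all genes, 46.0% were called in either direction for PC3 against LNCaP + DHT, 43.2% against LNCaP + vehicle and 14.0% with DHT. RAB7A, the Rab of late endosomes, had 212 ± 2.50 CPM in PC3 cells, 310.1 ± 14.3 in LNCaP + DHT cells and 276 ± 2.23 in LNCaP + vehicle cells (SD, n = 3). RAB12 came nearest to a call, higher in PC3 cells by 0.97 against LNCaP + vehicle cells (adjusted p = 1.63e-06).

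Of the 8 Rabs of regulated secretion 6 were tested, and all 6 were called between PC3 and LNCaP + DHT cells, 1 higher and 5 lower, beside 24.0% and 22.1% of all genes, with a median of -2.24 that was the lowest of any role. Against LNCaP + vehicle cells 1 was called higher and 2 lower, beside 22.2% and 21.0% of all genes, and with DHT 1 was called higher, beside 6.54%. RAB3B (chr1:51907956-51990700), a Rab of secretory vesicles, read 23.4, 26.4 and 22.2 CPM in PC3 libraries, 200.2, 237 and 221 CPM in LNCaP + DHT libraries and 46.1, 49.0 and 46.4 CPM in LNCaP + vehicle libraries. Its rise with DHT was the largest among the 50 members tested, at 2.19 on the log2 scale (standard error 0.067, adjusted p = 1.15e-11). PC3 cells were lower than LNCaP + DHT cells (-3.20), and against LNCaP + vehicle cells the value of -0.998 (adjusted p = 1.22e-05) fell just short of 2-fold. That value passed 2-fold under 6 of 15 alternatives, among them -1.12, -1.07 and -1.11 without LNCaP + vehicle replicate 1, 2 or 3. Each of these lay beyond the value from all libraries, with the filter and TMM factors recomputed.

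RAB3D, found on secretory granules of exocrine cells, had 52.9 ± 4.33 CPM in PC3 cells, 148 ± 5.99 in LNCaP + DHT cells and 81.6 ± 4.26 in LNCaP + vehicle cells (SD, n = 3), and RAB3A, the Rab of synaptic vesicles, had 5.05 ± 1.15, 39.5 ± 0.699 and 36.6 ± 1.05. RAB3D was higher with DHT by 0.83 (adjusted p = 2.04e-09), whereas RAB3A was at 0.081 and did not pass (adjusted p = 0.164). Both were called lower in PC3 than in LNCaP + DHT cells, at -1.498 and -2.98. Against LNCaP + vehicle cells RAB3A was called lower (-2.88), whereas RAB3D was at -0.65, under 2-fold. RAB3C had 1 count in 1 of the 9 libraries. In CPM per kb, RAB3B made up 23.5% ± 2.05 of the RAB3 subfamily with DHT and 8.63% ± 0.393 with vehicle, and RAB3A 30.3% ± 0.469 and 47.9% ± 0.617. By CPM without exon length, RAB3B made up 53.9% and 28.5%, and RAB3A 9.72% and 22.1%.

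RAB26 (chr16:2140803-2154165), which matures secretory granules, read 3.55, 3.87 and 5.16 CPM in PC3 libraries, 71.7, 71.3 and 65.4 CPM in LNCaP + DHT libraries and 48.9, 43.5 and 48.2 CPM in LNCaP + vehicle libraries. It was lower in PC3 cells, at -4.06 against LNCaP + DHT cells (standard error 0.14, adjusted p = 1.08e-07) and at -3.50 against LNCaP + vehicle cells. RAB27A and RAB27B, which dock secretory granules and exosome-bearing bodies at the cell surface, went opposite ways. RAB27B (chr18:54717860-54895516) read 54.5, 65.1 and 56.1 CPM in PC3 libraries, 12.2, 11.1 and 12.2 CPM in LNCaP + DHT libraries and 13.2, 11.4 and 13.2 CPM in LNCaP + vehicle libraries. It was called higher in PC3 cells, by 2.30 and 2.19 (adjusted p = 2.49e-07 and 4.29e-07), and was not past the test with DHT (-0.12, adjusted p = 0.229). RAB27A had 10.9 ± 2.42, 28.3 ± 1.37 and 15.4 ± 1.24 CPM, called lower in PC3 than in LNCaP + DHT cells (-1.39, adjusted p = 7.78e-05) and higher with DHT by 0.85 (adjusted p = 6.05e-07). RAB27B accordingly made up 89.5% ± 2.17 of the summed CPM per kb of the pair in PC3 cells, 39.8% ± 1.177 in LNCaP + DHT cells and 56.5% ± 3.70 in LNCaP + vehicle cells. By CPM without exon length its shares were 84.3%, 29.4% and 45.0%. Which of the pair is larger in LNCaP + vehicle cells therefore depends on the exon length used.

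**Figure D5:**
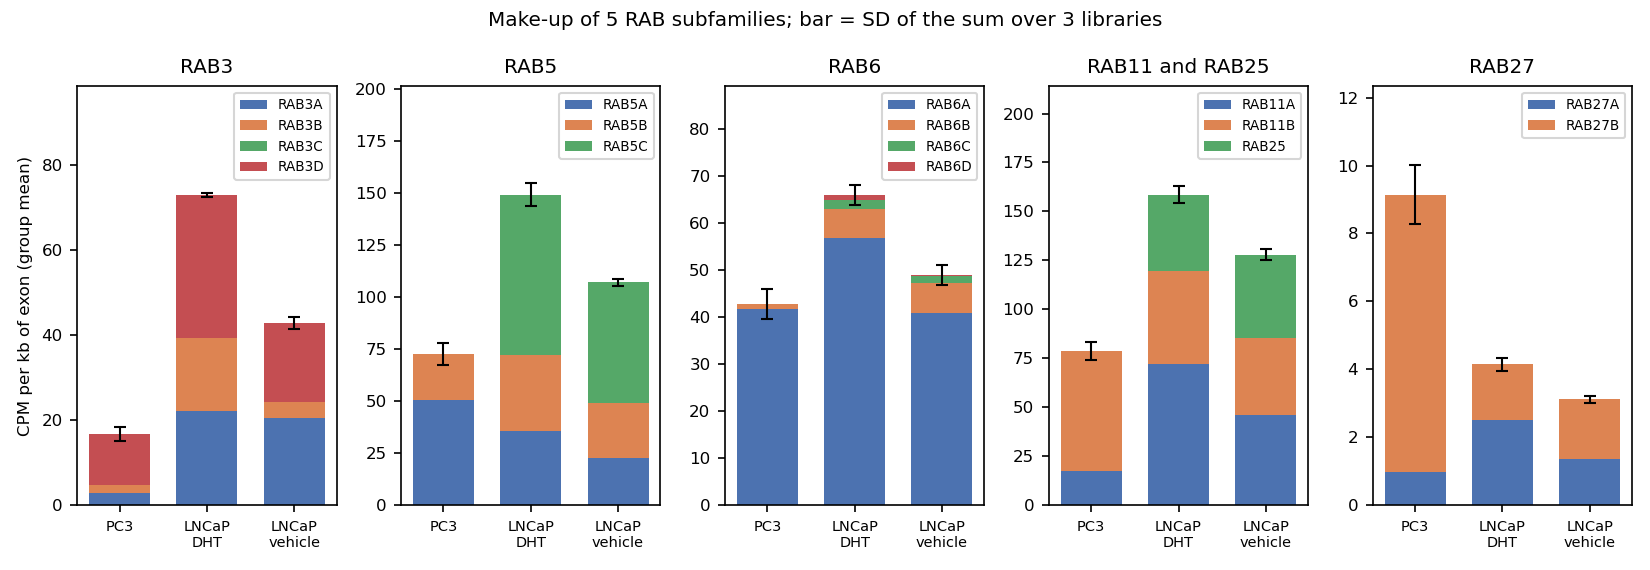
Make-up of 5 RAB subfamilies in each group, as stacked group means in CPM per kb of exon, with bars for the SD of the sum over 3 libraries and axes that start at 0. RAB5C is missing from the PC3 bar of RAB5, RAB25 from that of RAB11, and RAB27B fills most of the PC3 bar of RAB27.

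Of 18 members of the endoplasmic reticulum and Golgi, 15 were tested between PC3 and LNCaP + DHT cells, with 1 called higher and 7 lower, beside 24.0% and 22.1% of all genes. RAB34 (chr17:28714281-28718429), a Golgi Rab that also serves the building of primary cilia, read 77.6, 79.5 and 80.6 CPM in PC3 libraries and had the largest positive log2 fold change among the members tested. LNCaP + DHT libraries had 8, 2 and 1 counts of RAB34 and LNCaP + vehicle libraries 2, 2 and 3. RAB34 was 448-fold higher in PC3 than in LNCaP + DHT cells (exact 95% interval of the count ratio 250.0 to 897) and 656-fold higher than in LNCaP + vehicle cells (interval 318 to 1634). LNCaP + DHT replicate 1, with the 8 counts, was also the library with the highest sum of PC3 markers, and their part in the result was not tested. Without that library the log2 fold change rose from 8.75 to 9.86. Of 23 genes within 500 kb that PC3 cells expressed, all but RAB34 had at least 51 counts in every LNCaP library.

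RAB19 (chr7:140404058-140427974), a Golgi Rab, read 5.32, 4.90 and 5.76 CPM in LNCaP + DHT libraries and 9.73, 12.4 and 9.33 CPM in LNCaP + vehicle libraries, and had 2, 4 and 1 counts in PC3 libraries. It was 55.3-fold lower in PC3 than in LNCaP + DHT cells (exact 95% interval of the count ratio 26.6 to 139) and 109-fold lower than in LNCaP + vehicle cells (interval 52.4 to 272). It was the only member called lower with DHT, at -1.01 (standard error 0.13, adjusted p = 1.61e-05), and this call sat on the 2-fold limit. It was lost in 6 of 15 alternatives, with -0.98 and -0.95 without LNCaP + DHT replicate 1 or 2 and -0.88 without LNCaP + vehicle replicate 2.

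RAB6A, the main Rab of retrograde Golgi traffic, had 204 ± 14.7 CPM in PC3 cells, 278 ± 10.3 in LNCaP + DHT cells and 200.5 ± 8.41 in LNCaP + vehicle cells (SD, n = 3) and was called in none of the comparisons. RAB6B, its form enriched in nerve cells, was called lower in PC3 cells (-2.66 and -2.73), and RAB6A then made up 97.6% ± 0.333 of the RAB6 subfamily in CPM per kb, against 86.0% ± 0.586 and 83.6% ± 0.137. RAB6C (chr2:129979666-129982738) and RAB6D (chr2:131360492-131364168) are single-exon copies, and 43.4% and 36.4% of their 74-nt stretches occur elsewhere, so their counts are uncertain. RAB6C had 0 counts in all PC3 libraries, 5.82, 5.74 and 7.30 CPM in LNCaP + DHT libraries and 3.77, 4.64 and 4.17 CPM in LNCaP + vehicle libraries. It was at least 46.6-fold and at least 31.1-fold lower in PC3 cells. The antisense gene RAB6C-AS1 read 0 to 1 counts per PC3 library but 89 to 719 per LNCaP library, while the next gene, SMPD4, had 2011 to 2239 counts in PC3 libraries. RAB6D read 0.359, 0.135 and 0.315 CPM in PC3 libraries, 3.51, 4.07 and 4.37 CPM in LNCaP + DHT libraries and 0.890, 1.17 and 0.992 CPM in LNCaP + vehicle libraries. It was called higher with DHT (1.93, standard error 0.19) and lower in PC3 than in LNCaP + DHT cells (count ratio 14.4, exact 95% interval 9.15 to 24.1). In both comparisons RAB6D passed the filter only through the LNCaP + DHT libraries, so the calls are no separate support for the difference.

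RAB2A, which acts between the endoplasmic reticulum and the Golgi, had 59.5 ± 2.98, 201 ± 12.8 and 134 ± 5.24 CPM in PC3, LNCaP + DHT and LNCaP + vehicle cells and was called lower in PC3 cells (-1.77 and -1.19), while RAB2B was under 2-fold in every comparison. RAB18, a Rab of lipid droplets, had 96.9 ± 3.63, 292 ± 20.7 and 169 ± 9.57 CPM and was called lower in PC3 than in LNCaP + DHT cells (-1.60, adjusted p = 2.99e-07). Against LNCaP + vehicle cells RAB18 was at -0.82, under 2-fold, and with DHT it was higher by 0.76 (adjusted p = 1.30e-08). RAB39B, expressed in neurons, was called lower against both LNCaP groups (-2.79 and -2.67), with PC3 libraries spread over 2.63, 1.26 and 4.49 CPM. RAB36 was called lower too (-1.14 and -1.86), and the first call was lost without PC3 replicate 3 (-0.90). RAB1A and RAB1B were under 2-fold in every comparison and were higher with DHT by 0.55 and 0.60 (adjusted p = 2.53e-08 and 3.46e-09).

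Of the Rabs of lysosome-related organelles, RAB32 (chr6:146543833-146554953), which serves melanosomes, read 38.4, 33.0 and 45.0 CPM in PC3 libraries, 20.4, 15.6 and 17.7 CPM in LNCaP + DHT libraries and 9.10, 10.4 and 8.63 CPM in LNCaP + vehicle libraries. The 3 groups did not overlap, and RAB32 was called higher in PC3 cells by 1.103 and 2.03 (adjusted p = 0.000153 and 4.03e-06). The first of these calls was lost without LNCaP + DHT replicate 2 (0.93). RAB29, a partner of the kinase LRRK2, was called lower in PC3 than in LNCaP + DHT cells (-1.38, adjusted p = 2.07e-05). Against LNCaP + vehicle cells RAB29 was at -0.84, under 2-fold, and with DHT it was higher by 0.53 (adjusted p = 3.11e-06). RAB23 (chr6:57186992-57222307), a negative regulator of Hedgehog signalling, read 52.6, 54.3 and 45.4 CPM in PC3 libraries, 16.5, 14.9 and 14.9 CPM in LNCaP + DHT libraries and 29.0, 24.7 and 24.9 CPM in LNCaP + vehicle libraries. It was called higher in PC3 than in LNCaP + DHT cells (1.70, standard error 0.095, adjusted p = 1.01e-06). Against LNCaP + vehicle cells it was at 0.93, and at 1.08 without PC3 replicate 3. RAB23 was lower with DHT (-0.79, adjusted p = 7.74e-07), and 57.8% of its exons overlap BAG2 on the opposite strand. RAB40C, a substrate adaptor of a ubiquitin ligase, was called lower in PC3 than in LNCaP + DHT cells (-1.16, adjusted p = 3.79e-05), a call lost without PC3 replicate 1 or 2 (-0.96 and -0.99). Against LNCaP + vehicle cells RAB40C was at -0.84, under 2-fold. Its paralog RAB40B was lower in PC3 cells by less than 2-fold against both groups (-0.73 and -0.92, adjusted p = 0.000591 and 9.71e-05).

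The 12 members that were not tested were low in every library. RAB42 read 26 to 32 counts per PC3 library but 0 in all 6 LNCaP libraries, RAB33A 24 to 33 counts per PC3 library but 0 to 4 per LNCaP library, and RAB39A 7 to 10 counts in LNCaP + DHT libraries and at most 2 in any other. RAB9B lay between 31 and 52 counts in all 9 libraries. RAB7B, RAB3C, RAB41, RAB44 and RAB4B had at most 2 counts in every library. RAB43 shares 79.3% and RAB24 35.2% of their 74-nt stretches with other loci or genes, so their values are uncertain too.

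The genes that handle Rabs were taken from 3 lists. Of 8 genes of prenylation and membrane cycling, all tested, PC3 cells had 2 called higher and 1 lower against LNCaP + DHT cells, near the 24.0% and 22.1% of all genes. CHML, a Rab escort protein that presents new Rabs to the prenylation enzyme, had 247 ± 64.7 CPM in PC3 cells, 21.6 ± 2.06 in LNCaP + DHT cells and 49.2 ± 1.36 in LNCaP + vehicle cells (SD, n = 3), and fell with DHT by 1.21 on the log2 scale (adjusted p = 3.14e-09). RABIF was called higher in PC3 cells (1.43 and 1.67 against DHT and vehicle) and GDI2, which extracts Rabs from membranes, lower (-1.28 and -1.24). RABAC1, a factor that releases Rabs from GDI2 and its paralog, was called higher with DHT (1.42, adjusted p = 1.44e-09) and higher in PC3 than in LNCaP + vehicle cells (1.28). Against vehicle, the list had 3 called higher and 1 lower in PC3 cells, beside 22.2% and 21.0% of all genes.

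Of 38 exchange factors listed, 37 were in the table and 35 tested, of which PC3 cells had 12 called higher and 4 lower against LNCaP + DHT cells, beside 24.0% and 22.1% of all genes. Their median was 0.23, beside 0.036 over all genes. Against LNCaP + vehicle cells 9 were called higher and 5 lower, beside 22.2% and 21.0%. RIN1 and RIN3, exchange factors of the RAB5 group, were among those called higher. RIN1 had 47.1 ± 3.20 CPM in PC3 cells and 4 to 12 counts in LNCaP + DHT libraries, a count ratio of 146 (exact 95% interval 94.2 to 239). RIN3 read 374 to 394 counts per PC3 library but 4 to 6 per LNCaP + DHT library, a count ratio of 70.7 (exact 95% interval 42.0 to 129.7). DENND2A, an exchange factor of RAB9, had 26.6 ± 1.26 CPM in PC3 cells and 3 to 6 counts in LNCaP + DHT libraries, a count ratio of 127 (exact 95% interval 74.3 to 239.5). The largest falls were those of DENND2C (-1.81), DENND6B (-1.19) and DENND4C (-1.18) against LNCaP + DHT cells and of DENND1B (-2.71), DENND2C (-2.03) and DENND6B (-1.53) against LNCaP + vehicle cells. With DHT, 0 of 32 tested were called higher and 3 lower (DENND1B, SH3BP5 and DENND2B, at -1.81, -1.504 and -1.28), beside 6.54% and 7.49% of all genes.

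Of 45 effectors, 41 were tested between the lines and 40 between the LNCaP groups. Against LNCaP + DHT cells PC3 cells had 6 called higher and 12 lower, beside 24.0% and 22.1% of all genes and with a median of -0.023, and against LNCaP + vehicle cells 9 higher and 8 lower, beside 22.2% and 21.0%. RIMS1, a RAB3 effector of the presynaptic release site, read 0 to 2 counts per PC3 library but 1267 to 2169 per LNCaP library. MYRIP, which links RAB27A to myosin, read 1 to 7 counts per PC3 library but 26.6 ± 0.927 CPM in LNCaP + DHT cells, and RAB11FIP4, a RAB11 effector, had 0.822 ± 0.180 CPM in PC3 cells and 30.1 ± 1.06 in LNCaP + DHT cells. SYTL2 and UNC13D, effectors of RAB27, were called higher in PC3 cells by 3.48 and 3.11 against LNCaP + DHT cells and by 3.42 and 4.42 against LNCaP + vehicle cells, as was EHBP1L1, an effector of RAB8 (2.71 and 2.84). With DHT, 5 of 40 effectors were called higher and 0 lower, beside 6.54% and 7.49% of all genes. MICAL1 rose from 11.2 ± 0.654 to 177 ± 16.7 CPM (3.95, adjusted p = 4.87e-13), OPTN, a RAB8 effector, from 8.36 ± 0.284 to 47.0 ± 2.13 CPM (2.46) and BICD2, the RAB6 adaptor to dynein, from 36.7 ± 0.740 to 156 ± 21.3 CPM (2.05). The median of the effectors was 0.31 with DHT, beside -0.0068 over all genes.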

How the data were processed

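Poly(A) RNA libraries (KAPA HyperPrep), 9 in 3 groups, were taken with the groups the labels give. The authors deposited raw counts per gene, not normalized, in 1 table, with 0 columns left out. The submitters' processing notes name cutadapt 4.1, STAR 2.7.7a, UMI-tools 1.1.2 and the build GRCh38, and the study's supplement gives other versions of cutadapt and STAR. The counting annotation is not given in the sources used here. The counts per library equal STAR's forward-strand column, so antisense partners are counted apart. Reads not on a gene made up 20.3% to 25.4% per library and stayed out of library sizes.

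Genes above 3 CPM in at least 3 of the 6 libraries compared were kept. edgeR 4.0.16 (R 4.3.3) with TMM factors and the quasi-likelihood test gave log2 fold changes and Benjamini-Hochberg adjusted p over all genes tested, 1 comparison at a time. The study's batch term was left out because its batches are not named. DESeq2 1.42.0 was an alternative, and the scripts were tested on simulated data. For a gene at 0 in a group, a fold is a lower bound against 3 counts per library. For a low group with few counts, the ratio of summed counts is given with an exact 95% interval. Libraries of a group differed by more than sampling noise (chi-square per degree of freedom 2.26 to 54.5), so all counted as samples.

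By the naming rule the text names every member called in any comparison, RAB4A, RAB10, RAB11A and RAB14, which the study measured, and tested paralogs of the same number, gives per-library values for those 4 and for the largest folds, and takes up to 3 called genes per list, direction and comparison. RAB1B, RAB7A, RAB12, RAB13, the untested members and the genes around RAB5C, RAB6C and RAB25 were named after their values were seen. The level of 1 marker gene is not reported here. Members, roles and gene lists were chosen with earlier results of these data known. Same-numbered LNCaP + DHT and LNCaP + vehicle libraries deviated together, with correlations of 0.16, 0.23 and 0.20 over 10912 genes. Other pairs gave -0.25 to 0.087. Deviations were taken from the mean of the same libraries, so positive same-numbered pairs draw the others below 0, and these are no separate contrast. The numbers may therefore pair these libraries, which the labels do not say. The main fits did not use this pairing, and the replicate number as a block was an alternative. Gene locations and shared 74-nt stretches are from GENCODE 44, and promoter windows from RefSeq (GRCh38.p14), where 50 of 63 members had one.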

Additional observations from a re-analysis of the deposited data

How the results depend on the processing

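Of 1146 values of 78 member results under alternatives, 1125 kept their direction and side of the threshold, 10 gained a call, 10 lost one and 1 reversed. Of the 78 results, 70 were the same in every alternative that tested them. RAB19, RAB25 and RAB34 between the lines, and RAB6D, had values in 12 alternatives, not 15. Without a library of the group where they were high, they failed the filter and were not tested. Such missing values are not among the lost calls. RAB5C and RAB6C against PC3 cells, given as bounds, are not among the 78 results. The reversed value was that of RAB39B between the LNCaP groups, which ranged from -0.0041 without LNCaP + vehicle replicate 1 to 0.17 without replicate 2 and did not pass the test in the comparison of all libraries. With a limit of 1.5-fold in place of 2-fold, 9 members were called higher and 19 lower in PC3 than in LNCaP + vehicle cells. The counts of all genes there stayed within 1.5-fold of the 2822 and 2663 at the 2-fold limit. With DHT, 12 members were called higher and 4 lower at the 1.5-fold limit, beside 1736 and 1759 of all genes. Without the filter on low counts, 7 and 8 members were called higher in PC3 cells against DHT and vehicle and 0 lower with DHT, and 4798 and 4349, 4475 and 4238, and 1361 and 1580 of all genes were called higher and lower in the 3 comparisons. The member called lower with DHT, RAB19, was lost (0 members) with at least 10 counts in 3 libraries and with the replicate block and the likelihood ratio test. In a fit of all 9 libraries 6 members were lower with DHT by the adjusted p alone, while the count of all genes stayed within 1.5-fold of its main value of 4418.

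Leaving out 1 library gave 3 to 4 members called higher and 15 to 19 lower against LNCaP + DHT cells. Of all genes, 2129 to 2820 and 2133 to 2533 were then called. Against LNCaP + vehicle cells 5 to 6 and 9 to 12 members were called, beside 1899 to 2602 and 1978 to 2519 of all genes. With DHT 2 to 3 and 0 to 1 members were called, beside 622 to 746 and 658 to 911 of all genes. With 2 libraries in a group, fewer genes pass the filter of 3 libraries. The filter and TMM factors were recomputed in each such fit. A call gained or lost without a library can therefore not be laid to that library alone.

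With the replicate number as a block, the counts called higher and lower were 4 and 20 against LNCaP + DHT cells, 5 and 12 against LNCaP + vehicle cells and 3 and 1 with DHT, as without it. By the adjusted p alone they were 12 and 32, 15 and 25, and 31 and 11. Between the lines the same-numbered libraries did not deviate together (-0.061, 0.055 and -0.19 for DHT, 0.074, -0.19 and -0.021 for vehicle). The likelihood ratio form of the block was chosen after seeing the data. Groups of 3 libraries and, for RAB5C, RAB6C, RAB19, RAB25 and RAB34, counts near 0 in 1 line limit the precision of the largest folds.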
